A study of Danio rerio with 48 samples.

Results

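The 145 early-cleared maternal transcripts described here are zebrafish mRNAs that were present in the cleaving embryo. Their mean level over embryos was down to 50% or less of that early mean by 4.25 hours post fertilisation (hpf). They were chosen by their measured levels. The counts of each embryo were divided by its total without the most abundant gene ID and scaled to 1000000 (CPM), and the 12 embryos of a stage were averaged. A gene was kept if it had at least 10 CPM at 2.25 hpf, at 3.25 hpf a level no more than 25% above that, and at most 50% of it at both 4.25 and 5.25 hpf. Of 32520 gene IDs, 8435 reached 10 CPM at 2.25 hpf. Of those, 154 were at or below 50% at 4.25 hpf, 149 of these also at 5.25 hpf, and 147 also met the limit at 3.25 hpf. The rule leaves out 7 IDs, after which 145 remained, or 1.72% of the 8435, and its cap of 300 genes was not reached.

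The mother loads the egg with mRNA, and the first divisions run on that stock. Maternal transcripts are then removed in waves. An early wave relies on proteins already in the egg, which shorten the poly(A) tail and so lead to decay. A later wave relies on products of the newly active embryonic genome, among which the microRNA miR-430 is well known in zebrafish.

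Single whole embryos of the strains TL and AB, naturally spawned and raised at 28.5 °C, were collected in Trizol at 2.25 hpf, 3.25 hpf, 4.25 hpf and 5.25 hpf and profiled by CEL-seq2, which primes on the poly(A) tail and counts 3′ ends. Each strain had 6 embryos per stage, of which embryos 4 to 6 were biological replicate 2 and embryos 1 to 3 were biological replicate 1. The labels name no treatment and no mutation for any of the 48 embryos, and they do not say whether the embryos of a replicate share parents, so p-values measure the spread between embryos. Each replicate had its own sequencing runs and each stage its own library pool, so replicate and run, and stage and pool, cannot be told apart. An embryo had a median of 9853532 counts, with extremes of 4931012 and 20036495. The most abundant ID took 11.3 to 60.5% of them, and between 45.5 and 60.5% in AB embryos 1 and 2 against at most 47.9% in the others, so results on the replicates are also given without those embryos.

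All levels are relative. Loss of a transcript, a shorter tail that is primed less often, and growth of the rest of the RNA pool cannot be told apart, and neither can maternal copies and copies made by the embryo. All 145 transcripts were counted in each of the 12 embryos at 2.25 hpf, and 138 of them in all 48 embryos. Of 11 symbols listed as markers of carry-over from maternal tissue, 6 matched an ID, namely amh, lyz, hbaa1, hbae1.1, vtg1 and vtg2. These summed to at most 1.19 CPM in an embryo, with vtg2 at 0 throughout. The other listed symbols did not match, so few genes bear on carry-over. Of the 60 IDs on the list of zygotic activation genes, 5 had 10 CPM or more at 2.25 hpf and 0 were members. The rule asks for a later fall, so this 0 was largely set in advance. As CEL-seq2 counts 3′ ends, levels were not divided by transcript length. No positions are given, since the genome build is not given in the sources used here.

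The 145 transcripts had a median of 79.7% of their 2.25 hpf level at 3.25 hpf, 43.7% at 4.25 hpf and 20.3% at 5.25 hpf. These values chose the group and are a description only. The other 8283 genes of at least 10 CPM had medians of 97.9, 95.5 and 84.7%. Within the group the share left ran from 51.6 to 119% at 3.25 hpf, from 14.2 to 49.9% at 4.25 hpf and from 5.76 to 46.2% at 5.25 hpf. Just inside the limit stood RDH10 with 49.9% left at 4.25 hpf, bida with 49.8% and DDX49 with 49.7%, and just outside it cenpk and TMED3 with 50% each and NRP1 with 50.1%. For 56 of the 145, every embryo at 4.25 hpf lay below every embryo at 2.25 hpf (background 1.36% of 8428 genes), and at 5.25 hpf this held for 107 (background 11.2%). The low level at 4.25 hpf sets the group apart by its rule from many others, since 1644 of the 8435 genes were at or below 50% at 5.25 hpf.

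**Figure D1:**
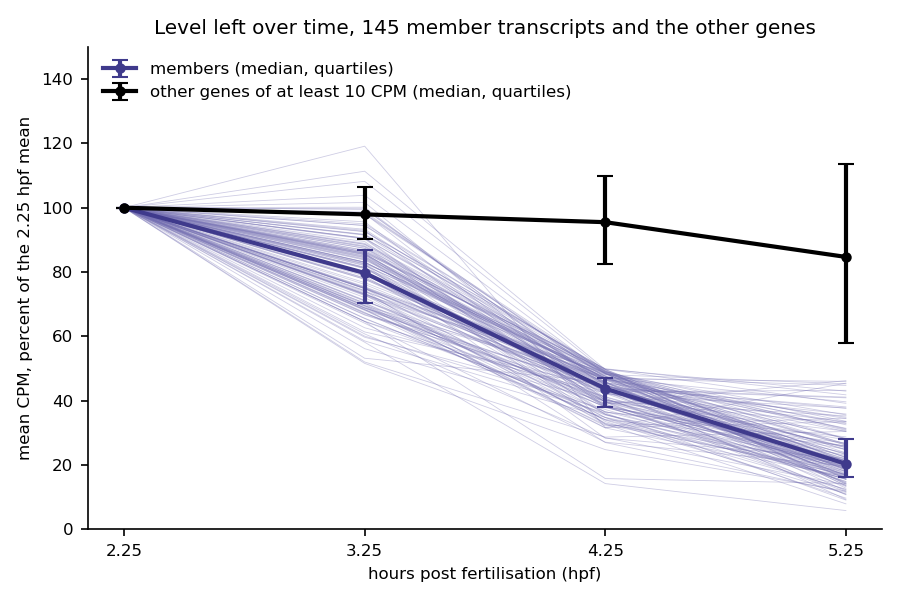
Mean CPM of each of the 145 transcripts (thin lines) as a percentage of its 2.25 hpf mean (y axis) against hours post fertilisation (x axis), with the median and quartiles of the group (blue) and of the 8283 other genes of at least 10 CPM (black). The group's median passes through 79.7, 43.7 and 20.3%, and that of the other genes through 97.9, 95.5 and 84.7%.

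DCK, the kinase that begins the salvage of deoxycytidine, had the smallest share left. It ranged from 14.9 to 83.4 CPM (median 33.7) at 2.25 hpf, from 6.84 to 47.2 CPM (median 20.4) at 3.25 hpf, from 1.37 to 21.7 CPM (median 4.03) at 4.25 hpf and from 0 to 6.28 CPM (median 1.92) at 5.25 hpf. Its mean was thus at 14.2% of the early level at 4.25 hpf and at 5.76% an hour later, although the lowest embryo at 2.25 hpf lay below the highest at 4.25 hpf.

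The chromatin ATPase morc3a ranged from 30.3 to 70.2 CPM (median 51.7) at 2.25 hpf, from 18.8 to 46.2 CPM (median 32.8) at 3.25 hpf, from 2.07 to 13.7 CPM (median 8.08) at 4.25 hpf and from 3.08 to 12.5 CPM (median 6.89) at 5.25 hpf. It had 15.7% left at 4.25 hpf and 14.2% at 5.25 hpf, and no embryo at either late stage reached the lowest at 2.25 hpf. Among members whose name is not a clone name, next came the Mediator subunit MED19 with 24.7%, SLC7A6OS, whose yeast counterpart carries RNA polymerase II into the nucleus, with 27.1%, and hdlbpb, a vigilin that binds RNA, with 28.4%. The proton pump subunit ATP6V0C had 28.6% left, the telomere nuclease DCLRE1B 31.5% and the interferon gamma receptor chain ifngr2 31.5%. SLC7A6OS was the most abundant of these, with 310.4 ± 52.1 CPM at 2.25 hpf and 84 ± 36.4 at 4.25 hpf (SD, n = 12 each). MED19 and ATP6V0C are among 20 members whose symbol more than 1 ID carries, so that reads may have been split between copies.

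The means of a few members took another course. In 6 of the 145 the mean at 3.25 hpf was above that at 2.25 hpf, with sulf2a, an enzyme that trims heparan sulfate, highest at 119%. Its means, 10.6 ± 7.03 and 12.6 ± 10.2 CPM (SD, n = 12 each), lay within the spread. Its share at 3.25 hpf was 75.8% in replicate 2 and 162% in replicate 1. In 6 of the 145 the mean at 5.25 hpf was above that at 4.25 hpf, sulf2a being in both sets. Among these, ifngr2 averaged 73.3 ± 16.1 CPM at 2.25 hpf, 51 ± 18.3 at 3.25 hpf, 23.1 ± 8.94 at 4.25 hpf and 33.3 ± 11.3 at 5.25 hpf (SD, n = 12 each). The others were SDHAF4, surf6, tomm40l, ATP6V0C and sulf2a, with means between 3.34 and 13.8 CPM at 4.25 and 5.25 hpf. Each of these rose by less than its SD at 4.25 hpf.

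The group spans a wide range of levels, with 50 transcripts at 100 CPM or more and 23 under 20 CPM at 2.25 hpf. Highest was org, named for its expression in oogenesis. It ranged from 961 to 1337 CPM (median 1162) at 2.25 hpf, from 672 to 1073 CPM (median 905) at 3.25 hpf, from 325 to 730.5 CPM (median 515) at 4.25 hpf and from 139 to 395 CPM (median 265) at 5.25 hpf. Then came slbp2, the oocyte form of the protein that binds the stem-loop of histone mRNA, with means of 943 ± 204, 864 ± 209.7, 468 ± 71.5 and 198 ± 85.3 CPM at the 4 stages (SD, n = 12 each). The embryo ranges of both overlapped at 2.25 hpf, where slbp2 reached 1377 CPM.

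The importin KPNA2 averaged 657 ± 106 CPM at 2.25 hpf and 239 ± 71.6 at 4.25 hpf, and the retinol dehydrogenase RDH10 634 ± 121 and 316 ± 40.4 CPM (SD, n = 12 each). The gene bmb (brambleberry), needed in zebrafish to fuse the nuclear envelopes around cleavage chromosomes, averaged 594 ± 111 and 289 ± 84.3 CPM, and the tubulin-modifying enzyme ttll4 545 ± 96.7 and 257 ± 35.7 CPM. RBBP4, a histone-binding subunit of chromatin complexes, stood at 383 ± 24.1 CPM at 2.25 hpf, 166 ± 38.5 at 4.25 hpf and 156 ± 30.2 at 5.25 hpf, the last difference being within the spread. DAZL, an RNA-binding protein of the germ line, averaged 370.4 ± 43.1, 369 ± 55.6, 174 ± 33.9 and 76.8 ± 35.9 CPM at the 4 stages, so its mean was about level until 3.25 hpf.

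By role, 91 of the 145 fell into 10 groups, which were assigned from gene names after the values were known. DNA replication, repair and histone supply held 15, with a median of 43.3% left at 4.25 hpf and 19.6% at 5.25 hpf. Besides DCK, DCLRE1B, slbp2 and RBBP4 it holds CDC45 of the replicative helicase (36.6% left at 4.25 hpf), the crosslink repair protein FANCD2 (39.7%), the chromatin remodeller HELLS (43.3%) and TOP2A, which untangles chromosomes (44.3%). Both IDs named ASF1B, a histone chaperone, were members, with 40.3 and 43.9% left. At 5.25 hpf TOP2A still had 37.6%, RBBP4 40.8% and casp8ap2 44.7%.

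Spindle, kinetochore and division genes numbered 12 (median 45.7% left at 4.25 hpf and 26.2% at 5.25 hpf). They include the kinetochore scaffold knl1 with 34% left at 4.25 hpf, stil, which centriole duplication needs, with 35.7%, and ECT2, which places the cleavage furrow, with 41.1%. The 3 nuclear transport genes were KPNA2 with 36.4%, its exporter CSE1L with 38.7% and the Ran-binding rangrf with 39.7%. The 3 oocyte and egg genes were zpax2 with 38.1%, org with 45.5% and DAZL with 47.1%.

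Transcription and chromatin genes numbered 15 (median 44.5% left at 4.25 hpf, 18.5% at 5.25 hpf), of which morc3a had the least left. Mitochondrial genes numbered 8 (median 40.8%), among them the chaperonin subunit HSPE1 with 38.1%. Endosome, lysosome and vesicle genes numbered 13 (median 45.5%), RNA processing and ribosome assembly genes 7 (median 41.9%), and ubiquitin pathway genes 6 (median 46.8%). The 9 genes of secreted and cell surface signalling had a median of 38.3% left at 4.25 hpf and included the melatonin receptor mtnr1aa with 7.85% left at 5.25 hpf. Their median level at 2.25 hpf, 15.2 CPM, was the lowest of the 10 groups.

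**Figure D2:**
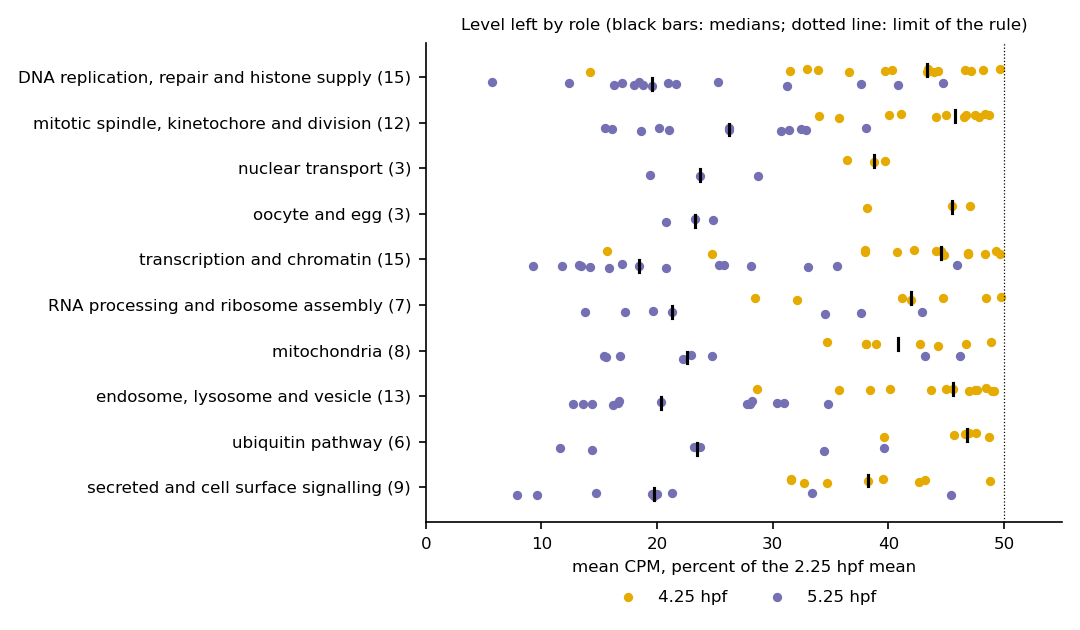
Mean CPM left at 4.25 hpf (orange) and 5.25 hpf (blue) as a percentage of the 2.25 hpf mean (x axis) for each transcript of the 10 role groups (rows, with the number of transcripts); black bars are medians and the dotted line is the 50% limit. The medians at 4.25 hpf lie between 38.3 and 46.8%, and the groups' ranges overlap widely.

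Gene names also show the make-up of the group. Kinesin (kif) genes were 2 of the 145, or 1.38%, against 0.237% of the 8435 genes, F-box (fbx) genes 2, or 1.38%, against 0.427%, and DDX helicases 2, or 1.38%, against 0.379%. Symbols that begin with slc, the prefix of solute carriers, stood at 1.38% against 1.41%, and zinc finger (znf) genes at 1.38% against 0.972%. Each of these rests on 2 genes. The 2 slc symbols are SLC29A2, a transporter, and SLC7A6OS, whose role given above is not that of a solute carrier. Clone names, which mark no family, made up 9.66% of the 145 and 7.87% of the 8435. The other families counted were no more frequent than among the 8435. They were tmem (0.690% against 1.15%), the rnf, trim and march ubiquitin ligases (0.690% against 0.794%) and rab (0 against 0.569%).

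Variation between the 3 embryos of a strain, stage and replicate was larger for the members at the later stages. Their median coefficient of variation was 17.6% at 2.25 hpf, 22.4% at 3.25 hpf, 23.2% at 4.25 hpf and 34.5% at 5.25 hpf, and that of the other genes 16.2, 19.0, 15.7 and 22.0%. The members' median level was 65.4, 49.1, 26.3 and 11.6 CPM at these stages, and the part of counting error in the spread was not tested.

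Summed over the 145, the members made up 1.72 ± 0.12% of counts in TL embryos and 1.73 ± 0.04% in AB embryos at 2.25 hpf (SD, n = 6 each). The sums were 1.41 ± 0.05% in TL and 1.35 ± 0.05% in AB at 3.25 hpf, 0.76 ± 0.09% in TL and 0.71 ± 0.10% in AB at 4.25 hpf, and 0.39 ± 0.05% in TL and 0.41 ± 0.06% in AB at 5.25 hpf. The strains overlapped at every stage. The median share left at 4.25 hpf was 42.9% in TL and 43.2% in AB, and at 5.25 hpf 20.2% in TL and 20.3% in AB. Single members differed more. At 4.25 hpf 120 of the 145 were at or below 50% in TL alone, 127 in AB alone and 102 in both. The highest share left at that stage was 88.3% in TL and 80.8% in AB. For 68 of the 145 the share left at 4.25 hpf was smaller in TL.

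**Figure D3:**
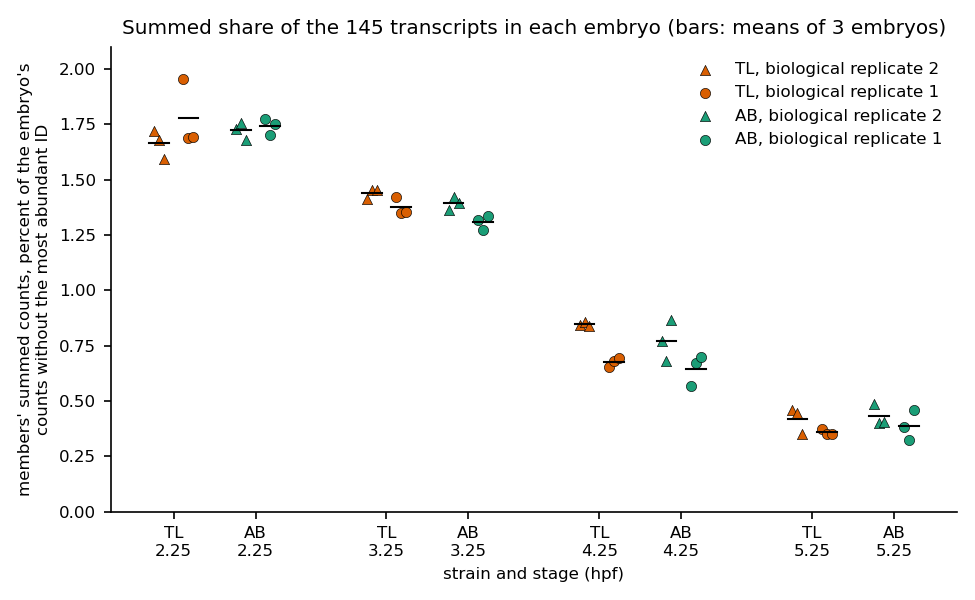
Summed counts of the 145 transcripts as a percentage of each embryo's counts without the most abundant ID (y axis), by strain and stage (x axis); triangles are embryos of biological replicate 2, circles of replicate 1, and bars are means of 3 embryos. TL and AB overlap at each stage, while at 4.25 hpf replicate 2 lies between 0.68 and 0.87% and replicate 1 between 0.57 and 0.70%.

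The strains were compared within each stage. The rule used their mean and not their difference, but a transcript could reach 10 CPM through its level in TL or AB alone. COLEC11 in TL embryos and DNAL1 in AB embryos lay below 10 CPM at 2.25 hpf, so their large differences are partly tied to the choice of members. By edgeR's quasi-likelihood test (adjusted p under 0.05 over all genes), 28 of the 145 differed at 2.25 hpf, against a background of 17.8% of 11950 genes. Of these, 13 were higher in TL (background 8.18%) and 15 lower (background 9.64%). At 3.25 hpf 27 differed (background 15.7%), 16 higher in TL (background 7.2%) and 11 lower (background 8.46%). At 4.25 hpf 36 differed (background 20.4%), 23 higher in TL and 13 lower (background 10.2% each way). At 5.25 hpf 11 of 140 tested differed (background 10.7%), 1 higher in TL (background 5.21%) and 10 lower (background 5.46%). Taken over both directions, the members' shares of 19.3, 18.6, 24.8 and 7.86% lie near the background. By direction they lay further off at the later stages. At 4.25 hpf 15.9% were higher in TL and 8.97% lower, against 10.2% each way. At 5.25 hpf 0.714% were higher and 7.14% lower, against 5.21 and 5.46%. The test had strain alone in its model, although the sequencing runs of a replicate pair the strains. With the replicate as a block, more members were called at each stage, as counted in the closing section. With the 3 embryos of each replicate summed into 1 sample, 10, 12, 3 and 1 members were called. Leaving out replicate 1 or 2 left 17 and 11 at 2.25 hpf, 17 and 13 at 3.25 hpf, 19 and 36 at 4.25 hpf, and 2 and 5 at 5.25 hpf. The share over all genes in these runs is not given, so whether the changes are particular to the members was not tested.

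Calls between the strains recurred in part in the separate embryos of later stages. Of the 28 members called at 2.25 hpf, 17 were called again at 3.25 hpf and 17 at 4.25 hpf, which is 60.7% each time and 63.0% and 47.2% of those called later. All of these kept their direction. Among all genes called at 2.25 hpf and tested later, 61.0% were called at 3.25 hpf and 68.7% at 4.25 hpf. At 5.25 hpf 5 of the 28 members, or 17.9%, were called again, against 39.0% of all genes. The direction at 5.25 hpf was that of 2.25 hpf for 24 of the 28. The members' median level was by then 11.6 CPM, against 48.2 CPM for the other genes. The part of the lower level in the fewer calls was not tested. Over the 4 stages, 92 members were called at none and 5 at all 4. These 5 were lower in TL at each stage, and the lectin COLEC11, ARHGEF7, the growth factor hbegfa and rangrf were among them.

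COLEC11 at 2.25 hpf ranged from 2.78 to 4.8 CPM (median 4.06) in TL embryos, against 32.8 to 52.6 CPM (median 35.7) in AB embryos. At 4.25 hpf it ranged from 1.03 to 5.2 CPM (median 4.06) in TL and from 15.9 to 23 CPM (median 17.4) in AB. The TL median was the same at both stages, so COLEC11 met the rule through its fall in AB. The strains did not overlap at any of the 4 stages. The log2 fold change, TL over AB, was -3.33 (SE 0.21, adjusted p = 6.76e-08) at 2.25 hpf, -2.86 (SE 0.27, adjusted p = 3.55e-06) at 3.25 hpf and -2.33 (SE 0.33, adjusted p = 0.000139) at 4.25 hpf.

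ARHGEF7, whose symbol another ID shares, ranged from 77.3 to 105 CPM (median 91.5) in TL and from 211 to 407 CPM (median 293) in AB at 2.25 hpf. At 4.25 hpf it ranged from 23.1 to 48 CPM (median 33.5) in TL and from 69.1 to 246 CPM (median 158) in AB. All TL embryos lay below all AB embryos at both stages. The log2 fold change was -1.68 (SE 0.16, adjusted p = 3.08e-06) at 2.25 hpf and -2.18 (SE 0.31, adjusted p = 0.000118) at 4.25 hpf, and the gene was called under every alternative run at each stage. The AB embryos at 4.25 hpf had 232, 203 and 246 CPM in replicate 2 and 83.8, 69.1 and 112 CPM in replicate 1.

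On the other side, SLC29A2, a nucleoside transporter, ranged from 129 to 334 CPM (median 163) in TL and from 14.5 to 100.3 CPM (median 46.8) in AB at 2.25 hpf, and from 55.6 to 139.9 CPM (median 63.5) in TL and from 6.69 to 36.5 CPM (median 18.4) in AB at 4.25 hpf. The log2 fold change was 1.81 (SE 0.46, adjusted p = 0.0117) at 2.25 hpf, 1.76 (SE 0.51, adjusted p = 0.0277) at 3.25 hpf and 2.11 (SE 0.38, adjusted p = 0.000966) at 4.25 hpf. The AB embryos were uneven: at 2.25 hpf they had 100.3, 20.9 and 95.7 CPM in replicate 2 and 14.5, 18.5 and 72.6 CPM in replicate 1. The call at 2.25 hpf was lost without replicate 1 (1.11, adjusted p = 0.149), and that at 3.25 hpf without replicate 1 (1.91), without replicate 2 (1.45) and without AB embryos 1 and 2 (1.32).

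DNAL1, a light chain of the dynein of motile cilia whose symbol another ID shares, ranged from 17.2 to 35.4 CPM (median 23.7) in TL and from 2.05 to 8.14 CPM (median 4.69) in AB at 2.25 hpf, and from 7.26 to 16.2 CPM (median 8.36) in TL and from 1.2 to 6.33 CPM (median 3.8) in AB at 4.25 hpf. The strains did not overlap at these stages. The log2 fold change was 2.31 (SE 0.34, adjusted p = 0.000223) at 2.25 hpf, 2.53 (SE 0.42, adjusted p = 0.0006) at 3.25 hpf and 1.40 (SE 0.37, adjusted p = 0.0139) at 4.25 hpf, the last being 0.64 and not called without replicate 2.

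Smaller differences at 4.25 hpf include TOP2A, KPNA2, ECT2 and CDC45, chosen here after their values were seen. TOP2A averaged 79 ± 6.75 CPM in TL and 46.3 ± 6.43 in AB (0.80, SE 0.12, adjusted p = 0.000199), and KPNA2 298 ± 41.3 CPM in TL and 180.4 ± 35.4 in AB (0.76, SE 0.13, adjusted p = 0.000645; SD, n = 6 each). Against the background of 20.4% given above, 4 of the 12 spindle and division genes were called there, 4 higher in TL and 0 lower, ECT2 among them with 0.71. Of the 15 replication and repair genes 3 were called, 3 higher and 0 lower, with CDC45 at 0.69. Transcription and chromatin genes had 1 higher and 4 lower of 15, secreted and cell surface signalling 1 higher and 2 lower of 9, mitochondrial genes 2 each way of 8, and nuclear transport 1 each way of 3. Without replicate 1 the calls of ECT2 (0.65) and CDC45 (0.58) were lost. The member called higher in TL at 5.25 hpf was hdlbpb, with 5.78 to 16.6 CPM (median 13.2) in TL and 2.06 to 7.34 CPM (median 4.5) in AB (1.45, SE 0.37, adjusted p = 0.0182). It was not called without replicate 1 (1.57), without replicate 2 (1.29) or without AB embryos 1 and 2 (1.15). With embryos summed by replicate, the calls of SLC29A2 (2.00), DNAL1 (1.34) and COLEC11 (-2.38) at 4.25 hpf and of hdlbpb (1.45) at 5.25 hpf were lost, as were those of TOP2A (0.81), KPNA2 (0.71), ECT2 (0.65) and CDC45 (0.68) at 4.25 hpf.

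**Figure D4:**
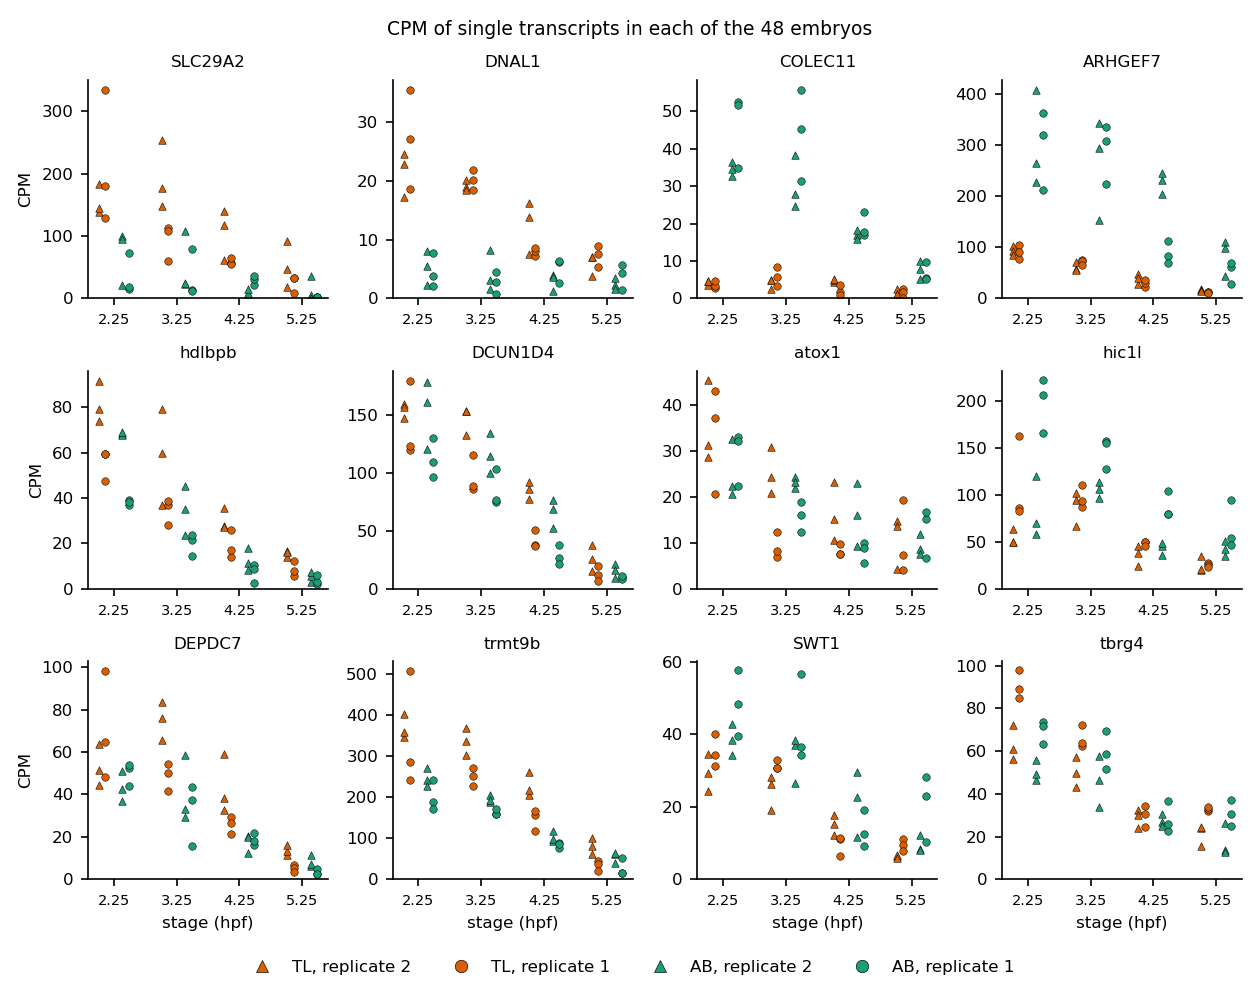
CPM of 12 transcripts in each of the 48 embryos (y axes, from 0) by stage (x axes, hours post fertilisation); orange is TL, green is AB, triangles are embryos of biological replicate 2 and circles of replicate 1. All TL embryos lie below all AB embryos for COLEC11 and ARHGEF7, the AB embryos are uneven for SLC29A2, and DCUN1D4 lies higher in replicate 2 at 4.25 hpf in both strains.

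Whether the strains differed in their course over time was tested as a change of the strain effect from 2.25 hpf. The caveat on the choice of members applies here too, since a member could pass the rule through its fall in TL or AB alone. At 4.25 hpf edgeR called 0 members and 0 of 14470 genes (background 0%), with 13 members at an unadjusted p under 0.05, and DESeq2 called 0 members. At 5.25 hpf edgeR called 0 members (background 0.352%), with 16 at an unadjusted p under 0.05, and DESeq2 called 1. The 13 and 16 members are 8.97 and 11.03% of members, against 3.09 and 7.90% of all genes at the same unadjusted limit. The members' shares were thus larger at both stages. The caveat on the choice of members covers these shares, and its part in them was not tested. A p that misses the threshold does not show that the strains ran alike.

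Biological replicates differed at 4.25 hpf mainly in one direction. With strain in the model, edgeR called 22 of the 145, against a background of 6.09%. Of these, 21 were higher in replicate 2 (background 3.34%) and 1 lower (background 2.75%). The members' median log2 fold change, replicate 2 over replicate 1, was 0.33, against 0.01 over all genes, and 112 of the 145 lay above 0, against 51.4% of all genes. The rule averaged the replicates, so a member could pass its 4.25 hpf limit through low levels in replicate 1. Taken alone, replicate 1 had 136 members within that limit and replicate 2 had 84. The difference at 4.25 hpf may thus be partly tied to the choice of members, which was not tested. At 2.25 hpf 12 were called (background 7.25%), 6 higher in replicate 2 (background 3.89%) and 6 lower (background 3.36%). At 3.25 hpf 4 were called (background 1%), each higher in replicate 2 (background 0.695%, and 0.305% lower). At 5.25 hpf 20 of 144 were called (background 12.5%), 15 higher in replicate 2 (background 6.18%) and 5 lower (background 6.29%). The median log2 fold changes there were -0.06, 0.10 and 0.13.

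The shift at 4.25 hpf, with the same caveat on the choice of members, had the same direction in each strain. The members' median was 0.34 in TL alone, with 10 called (background 2.23%), all higher in replicate 2 (background 0.984%). It was 0.29 in AB alone, with 9 called (background 2.66%), 6 higher (background 1.31%) and 3 lower (background 1.34%). All 21 members called higher in replicate 2 lay above 0 in both strains alone, but they were picked from these same embryos, so this is a description only. Without AB embryos 1 and 2, 11 were called (background 2.29%), all higher in replicate 2 (background 1.4%) and 0 lower (background 0.896%), and the median was 0.31. The summed share of the 145 at 4.25 hpf was 0.81 ± 0.07% in replicate 2 and 0.66 ± 0.05% in replicate 1 (SD, n = 6 each), with a small overlap.

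The share left shows the same from the side of the rule. In replicate 2 the members had medians of 82.8, 48.1 and 23.5% of their own 2.25 hpf level at the 3 later stages, and in replicate 1 75.1, 37.2 and 17.4%. At 4.25 hpf 84 of the 145 were at or below 50% in replicate 2 alone and 136 in replicate 1 alone, and for 121 the share left was larger in replicate 2. The replicates entered the rule together, so these shares are a description.

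Some other measures moved with the replicates and some did not. The cell cycle genes summed to 23541 to 25024 CPM in replicate 2 and 22550 to 25283 CPM in replicate 1 at 4.25 hpf. The zygotic activation genes summed to 3900 to 5141 CPM in replicate 2 and 4540 to 5798 CPM in replicate 1 at 4.25 hpf. In TL the replicates did not overlap in this sum, with 3900 to 4312 CPM in replicate 2 and 5289 to 5798 CPM in replicate 1. In AB they overlapped, with 4347 to 5141 CPM in replicate 2 and 4540 to 5145 CPM in replicate 1. The same list already summed to 2330 to 3473 CPM at 2.25 hpf. Marker sums in AB at 4.25 hpf were mixed. Mesoderm margin markers ran from 121 to 173 CPM in replicate 2 and 184 to 252 CPM in replicate 1. Dorsal organizer markers ran from 77 to 107 and 132 to 135 CPM, and yolk syncytial layer markers did not overlap either. Those of the endoderm, dorsal ectoderm and enveloping layer overlapped. At 5.25 hpf the zygotic activation genes summed to 8482 to 11660 CPM in replicate 2 and 13787 to 20982 CPM in replicate 1. Of 50 tested at 4.25 hpf, 1 was called higher in replicate 2 and 17 lower, and of 54 at 5.25 hpf 4 higher and 22 lower. Markers of the enveloping layer, the outer epithelium of the blastula, summed to 303 to 640 CPM in replicate 2 and 612 to 974 CPM in replicate 1 at 4.25 hpf, where 5 of 8 were called, each lower in replicate 2. The most abundant ID took 11.3 to 31.4% of counts in replicate 2 and 28.2 to 60.5% in replicate 1 at 4.25 hpf. Their part in the members' difference was not tested.

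**Figure D5:**
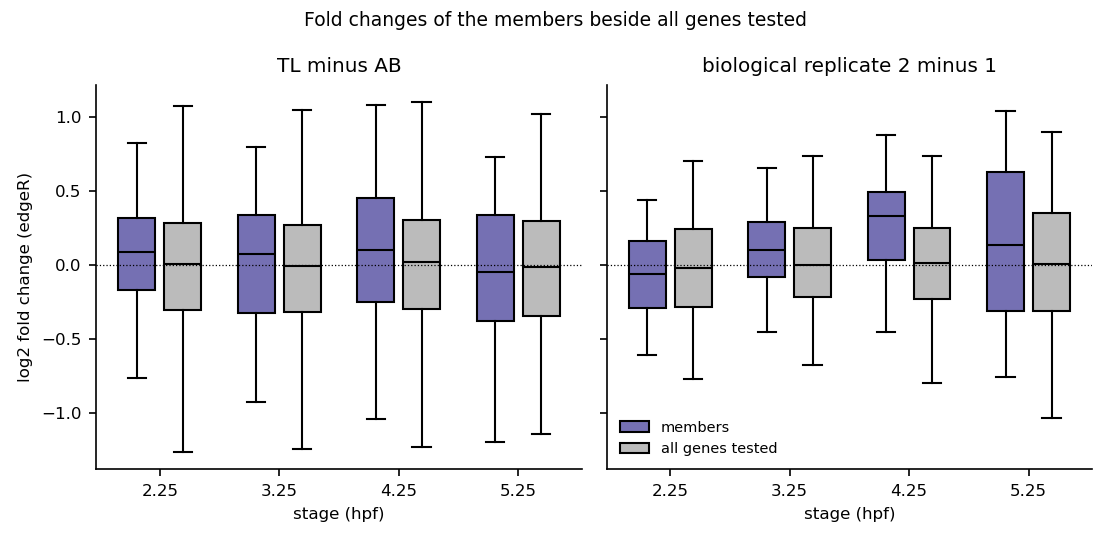
Log2 fold changes of the members (blue) and of all genes tested (grey) by stage (x axis, hours post fertilisation), TL over AB on the left and biological replicate 2 over replicate 1 on the right; boxes show the median and quartiles and whiskers the 5th and 95th percentiles. At 4.25 hpf the members' median in the replicate comparison is 0.33, against 0.01 for all genes.

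DCUN1D4, which helps attach NEDD8 to cullin ubiquitin ligases, ranged at 4.25 hpf from 52.4 to 91.7 CPM (median 77.2) in replicate 2 and from 21.2 to 50.5 CPM (median 37.5) in replicate 1. The replicates did not overlap. The log2 fold change was 1.14 (SE 0.15, adjusted p = 0.00143), and the gene was called at this stage under all 6 alternatives. At 3.25 hpf the difference was 0.60 (SE 0.13, adjusted p = 0.0378), a call lost without AB embryos 1 and 2 (0.67), in TL alone (0.69) and in AB alone (0.51). At 5.25 hpf it was 0.83 (SE 0.29, adjusted p = 0.0773), not called by edgeR and called by DESeq2 (0.81, adjusted p = 0.0457).

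SLC7A6OS, named here after its values were seen, was called higher in replicate 2 at all 3 later stages. It ranged from 162 to 305 CPM in replicate 2 and 137 to 206 CPM in replicate 1 at 3.25 hpf, from 90.2 to 174 CPM in replicate 2 and 48.8 to 66.3 CPM in replicate 1 at 4.25 hpf, and from 62.7 to 86 CPM in replicate 2 and 42.3 to 60.6 CPM in replicate 1 at 5.25 hpf. The log2 fold changes were 0.61 (SE 0.12, adjusted p = 0.0278), 0.99 (SE 0.15, adjusted p = 0.00207) and 0.50 (SE 0.14, adjusted p = 0.0314). The call at 4.25 hpf held under all 6 alternatives. Without AB embryos 1 and 2 those at 3.25 hpf (0.71) and 5.25 hpf (0.59) were lost, and the latest was also lost with no filter (0.50).

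The copper chaperone atox1 ranged from 20.8 to 30.8 CPM (median 23.7) in replicate 2 and from 6.91 to 18.9 CPM (median 12.3) in replicate 1 at 3.25 hpf (1.08, SE 0.23, adjusted p = 0.0408). At 4.25 hpf it ranged from 9.3 to 23.2 CPM (median 15.6) in replicate 2 and from 5.64 to 9.91 CPM (median 8.33) in replicate 1 (1.01, SE 0.27, adjusted p = 0.0362), with some overlap. Neither call held without AB embryos 1 and 2 (1.11 and 0.98). Among abundant members, org averaged 602 ± 122 CPM in replicate 2 and 441 ± 92.5 in replicate 1 at 4.25 hpf (0.48, SE 0.08, adjusted p = 0.00456), and DAZL 197 ± 19.6 CPM in replicate 2 and 152 ± 31.1 in replicate 1 (0.42, SE 0.11, adjusted p = 0.0316; SD, n = 6 each).

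Other members called higher in replicate 2 at 4.25 hpf were spread over the roles. Chosen after their values were seen, they include the division genes knl1 (log2 fold change 0.63) and TRIP13 (0.62), the histone binder RBBP4 (0.44), the deubiquitinase USP22 (0.63) and the ubiquitin ligase SIAH1 (0.77). Without AB embryos 1 and 2 the calls of TRIP13 (0.56), RBBP4 (0.34), USP22 (0.56) and SIAH1 (0.56) were lost, that of RBBP4 also without the most abundant ID (0.43, adjusted p = 0.0501). Against the background of 6.09% given above, 3 of the 15 replication and repair genes, 2 of the 12 division genes, 2 of the 3 oocyte and egg genes and 3 of the 6 ubiquitin pathway genes were called, each higher in replicate 2. Transcription and chromatin had 1 higher and 1 lower of 15, mitochondria 1 higher of 8, RNA processing 1 higher of 7, endosomes and vesicles 1 higher of 13, and signalling (of 9) and nuclear transport (of 3) 0. Of all 21, 17 also lay above 0 at 3.25 hpf, 14 at 2.25 hpf and 17 at 5.25 hpf, where 4 were called.

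The gene hic1l, a relative of the repressor Hic1, was lower in replicate 2. At 2.25 hpf it ranged from 50 to 121 CPM (median 61.1) in replicate 2 and from 83.5 to 223 CPM (median 165) in replicate 1 (-1.14, SE 0.20, adjusted p = 0.00685), and at 4.25 hpf from 25 to 48.5 CPM (median 42.3) in replicate 2 and from 45.6 to 104 CPM (median 64.9) in replicate 1 (-0.68, SE 0.17, adjusted p = 0.0286), overlapping at both. Neither call held without AB embryos 1 and 2 (-1.01 and -0.51).

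At 2.25 hpf hdlbpb ranged from 67.8 to 91.6 CPM in replicate 2 and 37.1 to 59.4 CPM in replicate 1 (0.72, SE 0.11, adjusted p = 0.00242). The transcription factor KLF11 ranged from 33.7 to 42.9 CPM in replicate 2 and 16 to 30.1 CPM in replicate 1 (0.80, SE 0.15, adjusted p = 0.00815). Neither gene's replicates overlapped. mcrip2 was lower in replicate 2, with 14.9 to 38.8 CPM in replicate 2 and 30.2 to 66.1 CPM in replicate 1 (-0.70, SE 0.19, adjusted p = 0.0409), and DCK at 3.25 hpf was higher, with 16.7 to 47.2 CPM in replicate 2 and 6.84 to 22.9 CPM in replicate 1 (1.12, SE 0.23, adjusted p = 0.0357). Without AB embryos 1 and 2 the calls of KLF11 (0.68), mcrip2 (-0.60) and DCK (1.26) were lost, and 2 members were called at 2.25 hpf in all (background 1.36%).

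At 5.25 hpf trmt9b, of a tRNA methyltransferase family, ranged from 40.9 to 99.9 CPM in replicate 2 and 15 to 53.3 CPM in replicate 1 (1.1, SE 0.28, adjusted p = 0.0176), and DEPDC7 from 6.42 to 16.2 CPM in replicate 2 and 2.36 to 6.8 CPM in replicate 1 (1.33, SE 0.30, adjusted p = 0.0091). Lower in replicate 2 were SWT1, an RNA endonuclease in yeast, with 5.99 to 12.3 CPM in replicate 2 and 7.96 to 28.3 CPM in replicate 1 (-0.87, SE 0.27, adjusted p = 0.046), and the mitochondrial RNA factor tbrg4 with 12.9 to 26.5 CPM in replicate 2 and 25 to 37.2 CPM in replicate 1 (-0.75, SE 0.21, adjusted p = 0.0293). The replicates of all 4 genes overlapped. Without AB embryos 1 and 2 the calls of trmt9b (0.82), SWT1 (-0.94) and tbrg4 (-0.80) were lost (that of SWT1 also with no filter on low counts, at -0.87) and that of DEPDC7 was not, and 3 members were called in all (background 4.76%).

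The strain effect was also compared between the replicates. By edgeR 0 members were called at 2.25, 3.25 and 5.25 hpf (backgrounds 0.106, 0.0751 and 0%), with 6, 9 and 3 at an unadjusted p under 0.05. These are 4.14, 6.21 and 2.07% of members, against 5.80, 5.43 and 2.94% of all genes. At 4.25 hpf 30 members, or 20.7%, had an unadjusted p under 0.05, against 12.8% of all genes. The 1 member called there was SLC29A2 (background 0.315%). Its TL embryos had 62.4, 139.9 and 118 CPM in replicate 2 and 56.4, 55.6 and 64.6 CPM in replicate 1, and its AB embryos 6.69, 8.65 and 14.4 CPM in replicate 2 and 22.3, 30.7 and 36.5 CPM in replicate 1. TL lay above AB in both replicates, by 2.46 more on the log2 scale in replicate 2 (SE 0.42, adjusted p = 0.0219). With no filter on low counts its difference at 2.25 hpf was called with the opposite sign (-1.53, adjusted p = 0.0032).

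Genes that carry out clearance were set beside the members. The list of deadenylation, decapping, decay and microRNA factors matched 84 IDs, of which 63 had 10 CPM or more. It held 0 members, which is near the 1.72% of all genes of that level. By edgeR 2 of its 76 tested genes rose from 2.25 to 4.25 hpf and 0 fell (adjusted p under 0.05 and a log2 change of at least 1; backgrounds 4.93% and 1.35%), with 8 lower at an unadjusted p under 0.05, and DESeq2 called 3. Members were 125 of the 196 genes that fell by 4.25 hpf, so the 0 falls here largely repeat the 0 members on the list. By 5.25 hpf 7 of the 76 had risen and 8 had fallen (backgrounds 10.9% and 12.3%), or 9 in all without replicate 1.

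Those that rose at 4.25 hpf were BTG1, a partner of the deadenylase, and MEX3B, an RNA-binding ubiquitin ligase. BTG1 averaged 33.2 ± 9.65, 32.9 ± 9.98, 105 ± 30.7 and 275 ± 58.5 CPM at the 4 stages (SD, n = 12 each). BTG4, the adaptor that brings the deadenylase to maternal mRNA in vertebrate eggs, averaged 1365 ± 267, 1540.0 ± 318, 1003 ± 138 and 332 ± 161 CPM, and fell at 5.25 hpf (log2 fold change -1.86, SE 0.18, adjusted p = 1.59e-12). DROSHA, which starts microRNA processing, also fell at 5.25 hpf (-1.96, SE 0.18, adjusted p = 3.83e-13).

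The oocyte list matched 66 IDs, of which 53 had 10 CPM or more. It held 3 members (DAZL, slbp2 and org), or 5.66% of the 53, against 1.72% of all genes of that level. Of its 58 other genes tested, by edgeR 1 rose and 0 fell by 4.25 hpf (18 lower at an unadjusted p under 0.05, and 1 called by DESeq2), and 3 rose and 16 fell by 5.25 hpf. As the members on the list were left out, the 0 at 4.25 hpf was largely set by the rule. Without replicate 1 the 19 calls at 5.25 hpf became 11. The germ plasm organiser buc averaged 1229 ± 134, 975 ± 113, 667 ± 90 and 210.4 ± 93.9 CPM at the 4 stages (SD, n = 12 each) and fell by 5.25 hpf (-2.38, SE 0.15, adjusted p = 2.26e-18), as did the oocyte growth factor bmp15 (-1.93, SE 0.15, adjusted p = 1.99e-15). Of 8 germ plasm markers, 1 was a member, or 12.5% against the same 1.72%. It was DAZL, already counted on the oocyte list, so this share rests on 1 gene. Of the other 7 markers, 3 fell by 5.25 hpf.

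The cell cycle list matched 101 IDs, of which 85 had 10 CPM or more. It held 2 members (ECT2 and CDC45), or 2.35% of the 85, near the 1.72% of all genes of that level. Of its 95 other genes tested, by edgeR 7 rose and 0 fell by 4.25 hpf (17 lower at an unadjusted p under 0.05, and 7 called by DESeq2), and 14 rose and 11 fell by 5.25 hpf. Here too the members were left out, so the 0 at 4.25 hpf was largely set by the rule. The cyclin CCND1 averaged 5.24 ± 5.56, 8.42 ± 6.04, 379 ± 164 and 1366 ± 347 CPM at the 4 stages (SD, n = 12 each), and the cyclin-dependent kinase inhibitor cdkn1ca 2.75 ± 1.93, 4.13 ± 1.54, 68.1 ± 17.1 and 195 ± 41.2 CPM. Of 54 zygotic activation genes tested, by edgeR 47 rose and 0 fell by 4.25 hpf (1 lower at an unadjusted p under 0.05; 47 called by DESeq2). Among them the T-box factor tbx16 averaged 0.151 ± 0.142, 1.09 ± 0.985, 118 ± 65.4 and 845 ± 385 CPM.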

How the data were processed

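Whole-embryo CEL-seq2 libraries of 48 zebrafish embryos (2 strains, 4 stages, 6 embryos each) were analysed from the counts per gene ID that the authors deposited. The submitters' processing notes name bcl2fastq 2.19.0.316, STAR 2.7.1a and edgeR 3.26.8 without their roles. The counting program, genome build, annotation, use of strand and treatment of molecular identifiers are not given in the sources used here, so antisense and overlapping genes may share reads. Symbols came from a gene name table, which matched 29201 of 32520 IDs. None of the 120 pairs of embryos of the same strain and stage agreed within sampling noise.

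The members, role groups and gene lists were chosen with earlier results of these data known. Genes were tested with edgeR 4.0.16 (R 4.3.3; filterByExpr, TMM, quasi-likelihood F test, Benjamini-Hochberg adjustment over all genes, threshold 0.05; stage lists also an absolute log2 fold change of at least 1). CPM values in the text are counts divided by the total without the most abundant ID, and fold changes are edgeR's on TMM-scaled counts. The SE is the fold change divided by the square root of F. Strain tests used the 12 embryos of a stage, replicate tests added strain as a covariate, and stage tests used all embryos. The scripts were tested on simulated data. Genes named are the 8 smallest shares left, the 8 most abundant, the largest called differences of each comparison above 5 CPM, genes on the fixed lists and genes next to the limit, plus others that illustrate a role group or were chosen after their values were seen; some genes that this rule picks are not reported here.

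Alternatives were DESeq2 1.42.0, no filter, the replicate as a block, embryos summed by replicate, a spread shared over stages, each replicate left out, each strain alone, and other scalings. The labels tie a replicate to its own sequencing runs, which pairs the strains: over all genes, deviations of same-numbered groups correlated with r = 0.371, 0.276, 0.203 and 0.617 from the first stage to the last. The depth limits low members: at 5.25 hpf 140 of the 145 passed the filter of the strain test. Intervals are not given, and sequences and positions were not used here.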

Additional observations from a re-analysis of the deposited data

Results flagged for a closer look

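Among 32 groups of 6 embryos tested for a single embryo far from the rest, 2 were marked, and chance marks about 1 in 20. The summed share of the 145 transcripts was 1.96% in TL embryo 1 at 2.25 hpf, where the next highest TL embryo had 1.72% and the lowest 1.59%. COLEC11 had 23.0 CPM in AB embryo 1 at 4.25 hpf, where the next highest AB embryo had 18.4 CPM and the lowest 15.9 CPM.

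The strain effect on SLC29A2 at 4.25 hpf differed between the biological replicates, by 2.46 on the log2 scale (edgeR, adjusted p = 0.0219). It stood at 2.43 without the filter on low counts, under which the difference at 2.25 hpf was called with the opposite sign (-1.53, adjusted p = 0.0032).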

How the results depend on the processing

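No named gene's fold change changed sign under the alternatives run. The counts of members below stand without the share over all genes in the same run. Whether a change in them is particular to the members was not tested. The split of members' strain calls by direction varied with the run, and the split over all genes in the alternatives was not compared. From 2.25 to 5.25 hpf, 13, 16, 23 and 1 members were higher in TL and 15, 11, 13 and 10 lower. Without replicate 1 these were 5, 7, 12 and 0 higher and 12, 10, 7 and 2 lower. Without replicate 2 they were 6, 7, 18 and 2 higher and 5, 6, 18 and 3 lower. With summed embryos they were 4, 6, 0 and 0 higher and 6, 6, 3 and 1 lower. Leaving out a replicate gave 11 to 17 members called between strains at 2.25 hpf (28 with all embryos), 13 to 17 at 3.25 hpf (27), 19 to 36 at 4.25 hpf (36) and 2 to 5 at 5.25 hpf (11). Embryos summed by replicate gave 10, 12, 3 and 1, and a spread shared over stages gave 27 at 5.25 hpf. With the replicate block the strain counts were 36, 35, 43 and 15, and 1 member changed its strain effect by 5.25 hpf, against 0 without the block; the block changed no call of a named gene. DESeq2 also called that 1, and leaving out replicates gave 0 to 1.

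Between biological replicates, DESeq2 called 21 at 2.25 hpf (12 by edgeR), 11 at 3.25 hpf (4) and 33 at 5.25 hpf (20), and no filter gave 10 at 3.25 hpf and 34 at 4.25 hpf (22). Of 25 replicate results of named genes, 19 lost the call in TL alone, 18 in AB alone and 17 without AB embryos 1 and 2. AB alone gave 6, 0, 9 and 0 at the 4 stages, with 37, 12, 39 and 26 at an unadjusted p under 0.05, and TL alone gave 0 at 2.25 hpf, 10 at 4.25 hpf and 0 at 5.25 hpf, with 17, 49 and 26. Without AB embryos 1 and 2, an alternative chosen after seeing the data, the counts were 2, 0, 11 and 3, with 27, 23, 49 and 36 at an unadjusted p under 0.05. Without the filter, 1, 2 and 6 members differed in strain effect between replicates at the first 3 stages (0, 0 and 1 with it). Leaving out a replicate gave 9 to 21 clearance genes at 5.25 hpf (15), 0 to 2 oocyte genes at 4.25 hpf (1) and 11 to 20 at 5.25 hpf (19). The rule itself chose 111 to 268 IDs with a replicate left out (145 with all), 103 with TMM scaling, 162 in TL alone and 178 in AB alone. The causes were not tested beyond the smaller number of embryos. Without the most abundant ID the replicate counts were 21 at 4.25 hpf and 19 at 5.25 hpf, clearance genes 14 and oocyte genes 18 at 5.25 hpf.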
